A study of Nothobranchius furzeri with 15 samples.

Results

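Of 1810 circular RNAs (circRNAs) listed for the turquoise killifish Nothobranchius furzeri, 346 had at least 1 end outside annotated exons. They were taken from the deposited position table as every circRNA whose pair of end classes was anything other than exon and exon. No read count entered this rule, but it was set with earlier results of these data known. These 346 are called members here. The remaining 1464, with both ends exonic, are the comparison. The fish were of strain GRZ-AD, a short-lived annual strain kept as a model of vertebrate ageing. Brain was sampled at 3.5, 8.5 and 14 weeks with 3 libraries per age, and muscle at the same 3 ages with 2 libraries per age, 15 libraries in all. No other treatment or allele is named in the labels.

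A circRNA is a closed RNA loop, made when the splicing machinery joins the downstream end of an exon back to the upstream end of the same or an earlier exon. The loop has no free end for exonucleases to attack, so circRNAs are known as long-lived molecules, and brain is known as a tissue rich in them. Back-splicing normally uses the splice sites of known exons, so an end outside annotated exons can mark an exon or a gene that the annotation lacks, as well as a junction of another kind.

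Per library, circular reads numbered 1343 to 4400 and linear reads 76515 to 135698 over the table, of which 472 to 1343 circular and 15814 to 28813 linear reads belonged to circRNAs with an end outside exons. The linear count is the value the authors give beside each circular count, and what it covers is not given in the sources used here. Linear reads at hosts on a list of brain marker genes made up 4.34% to 5.87% of each brain library and 0.0114% to 0.0586% of each muscle library. Hosts on a list of skeletal muscle markers made up 0.216% to 1.09% of each brain library and 13.4% to 14.7% of each muscle library. None of the genes listed for blood, skin or liver hosted a circRNA in the table, so RNA from those tissues could not be looked for. Nothing in the labels states that each library is a different fish, so the p-values measure the spread between these libraries, which may be technical. In bulk tissue, fewer cells of a type and less RNA per cell cannot be told apart.

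One end was exonic for 168 of the 346 circRNAs and neither end for 178. Of the 178, 19 lay in a host gene and 159 had none, so 187 circRNAs with an end outside exons had a host. These came from 175 host genes, 12 of which gave 2 such circRNAs, and 51 of the 175 hosts also gave a circRNA with both ends exonic. The file's only class for a non-exonic end is "intergenic", and it is used for ends within host genes too, so the class says that no annotated exon lies there and not that the end lies between genes. Read along the strand given in the table, the end outside exons was the upstream one in 81 circRNAs and the downstream one in 87. An end position was shared exactly with a circRNA of the same host whose ends were both exonic in 29 cases. In all 29 the shared end was the exonic one, which follows from the match to an exonic end of the partner. The upstream end was the outside one in 22 of these 29 and the downstream end in 7. In 16 of the 29 the circRNA with an outside end had more circular reads than its partners together. For rasgrf2, a calcium-activated exchange factor for Ras, the circRNA with an outside end had 88 reads over all libraries, against 24 for the exonic one. For nup50, a nucleoporin, the counts were 194 and 72. For nsun4, a methyltransferase of mitochondrial ribosomal RNA, the order was the other way, with 3 reads for the circRNA with an outside end and 579 for its exonic partner.

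The distance between the ends had a median of 6016 bases over the 346 circRNAs, against 4868 bases for circRNAs with both ends exonic. It was 7268 bases with 1 exonic end and 3727 bases without a host gene. Unplaced scaffolds, written scf in the table, held 35 of the 346 (10.1%) against 1.43% of circRNAs with both ends exonic, and 29 of those 35 were among the 159 without a host. Of the 159, 46 overlapped another circRNA with an outside end, and 37 shared an exact start or end with one. Neighbouring entries of this kind are not independent of each other. One chromosome 11 locus gave 3 of them with a common end at 46998845. Coordinates are those of the deposited table, whose genome build is not given in the sources used here.

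CircRNAs with an outside end held a larger part of the circular reads than of the entries in the table. At least 1 circular read was found for 300 of the 346 circRNAs (86.7%), against 93.8% of circRNAs with both ends exonic, and 10 or more for 50.6% against 49.2%. They were read in brain alone (137), in muscle alone (25) or in both (138), and 46 had 0 reads in all 15 libraries. Over all 1810 circRNAs these counts were 786, 140, 747 and 137, with 9 brain and 6 muscle libraries. Making up 19.1% of the table, circRNAs with an outside end held 9164 of 27811 circular reads in brain and 4240 of 14350 in muscle. Among the 10, 50 and 100 circRNAs with the most circular reads they numbered 5, 28 and 45 in brain and 3, 13 and 25 in muscle. The reads were concentrated: the 10 leading circRNAs with an outside end held 36.2% of the group's circular reads in brain and 61.1% in muscle. A single circRNA of filamin C, flnc.2, held 31.1% of them in muscle and 1.67% in brain.

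Circular share was taken as circular reads over circular plus linear reads of the same table entries, summed over a class within each library. For circRNAs with an end outside exons it averaged 3.99 ± 0.414% in brain, against 2.37 ± 0.502% for circRNAs with both ends exonic (SD, n = 9 each). The difference of 1.62 percentage points had the same direction in 9 of 9 libraries (two-sided exact sign-flip permutation test, p = 0.00391, adjusted p = 0.0146 over 15 tests). In muscle the shares were 3.39 ± 1.03% and 2.00 ± 0.864% (SD, n = 6 each). The muscle difference of 1.39 points was seen in 6 of 6 libraries, and its exact p of 0.0313, the smallest that 6 pairs allow, gave an adjusted p of 0.0670. The circRNA flnc.2 alone held 31.1% of the members' circular reads in muscle, and 272 of 833 in library 3 of 8.5 weeks. Much of the muscle difference thus lay in 1 circRNA, and no value without it is given here. Taken as the median over circRNAs in each library, the brain difference was 1.05 points with an exact permutation p of 0.0625 (adjusted p = 0.134). That median was 0 in every brain library for circRNAs with both ends exonic, and in some for those with an outside end. Such ties limit the smallest p this test can give, so it cannot decide whether the result depends on summing.

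The class was far from uniform. CircRNAs with 1 exonic end reached a summed share of 16.5 ± 0.905% in brain, and those with no exonic end 1.40 ± 0.1996%. The difference passed the same test (exact p = 0.00391, adjusted p = 0.0146, 9 of 9 libraries). In muscle the values were 15.4 ± 3.51% and 0.939 ± 0.416% (6 of 6 libraries, exact p = 0.0313, adjusted p = 0.0670). Divided by host gene instead, the share with a host was 16.9 ± 0.722% in brain and 15.6 ± 3.51% in muscle, and without a host it was 0.963 ± 0.230% in brain and 0.818 ± 0.392% in muscle, with the same p-values as above. The 19 circRNAs that lay in a host but had no exonic end had a summed share of 21.0 ± 3.11% in brain and 30.6 ± 5.27% in muscle, above that of those with 1 exonic end in every library. Between the orders of the 1-exon classes, in genomic order, the share in brain was 23.0 ± 1.54% where the exonic end was the higher coordinate and 8.71 ± 0.819% where it was the lower one. In muscle these were 16.2 ± 3.88% and 11.5 ± 2.74%. Genomic order mixes the strands. Read along the strand and pooled over libraries, the brain share was 13.3% with the upstream end outside and 20.3% with the downstream end outside. In muscle the order was the other way, at 16.1% and 14.8%. There flnc.2 alone held 1319 of the 1903 circular reads with the upstream end outside. It also held 1319 of the 2853 where the exonic end was the higher coordinate. Neither muscle order can therefore be read as one of the class.

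**Figure D1:**
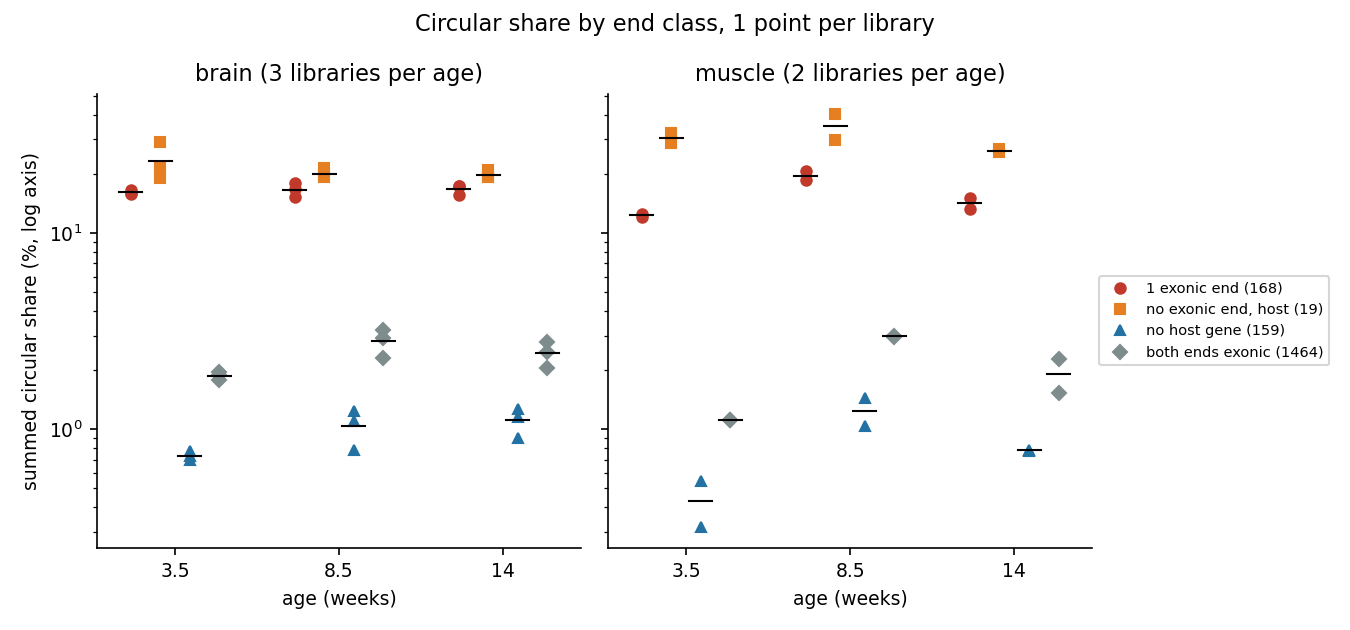
Summed circular share in percent (log axis) by age in weeks for brain (left) and muscle (right), 1 point per library with bars at the group means, for circRNAs with 1 exonic end, with no exonic end but a host, without a host, and with both ends exonic. The first 2 classes lie between 12.1% and 40.3% in every library, and the class without a host stays at or below 1.44%.

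The low share of the class without a host lay beside a few positions with very many linear reads. Of its 159 members, 5 entries held 72.4% of the class's linear reads in brain and 78.1% in muscle, with 29 and 3 circular reads. They lie on chromosome 2 (48434408 to 48434925 and 56841919 to 56841976) and on the scaffolds scf38933, scf223 and scf14583. Of these 5, 3 have the table's rare junction type 2, and spans as short as 55 bases occur among them. The one on scf38933 had 41585 linear reads in brain and 33984 in muscle and 0 circular reads in either. The entry on scf223 had nearly the same linear count in every library, 3605 to 3759 in brain and 3607 to 3823 in muscle. In muscle an entry with both ends exonic, LOC107389481, was as even, at 7824 to 7897, the highest linear count of the table in 6 of 6 libraries. These, with a member on scf36650 (252 to 300 in brain), were the entries of 200 or more linear reads on average whose variance between libraries of a tissue was below the mean; whether such counts were limited in the counting was not tested. Without the 3 of them, the brain difference in summed share between circRNAs with an outside end and those with both ends exonic was 2.36 points (exact permutation adjusted p = 0.0146). They were left out after the data were seen. The entry on scf223 had 33097 linear and 8 circular reads in brain, so leaving it out raises the members' share. The value is therefore no further test. Without the 5 leading entries, the share of the class without a host was 3.41% in brain and 3.64% in muscle when reads were pooled over the libraries of a tissue.

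Where the share was high, circular reads outnumbered linear reads. Of circRNAs with an outside end and 20 or more circular reads in brain, 18 of 81 had more circular than linear reads, against 3 of 210 circRNAs with both ends exonic. In muscle the counts were 8 of 34 and 6 of 114. The plot of circular against linear reads shows these members above the line of equality.

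**Figure D2:**
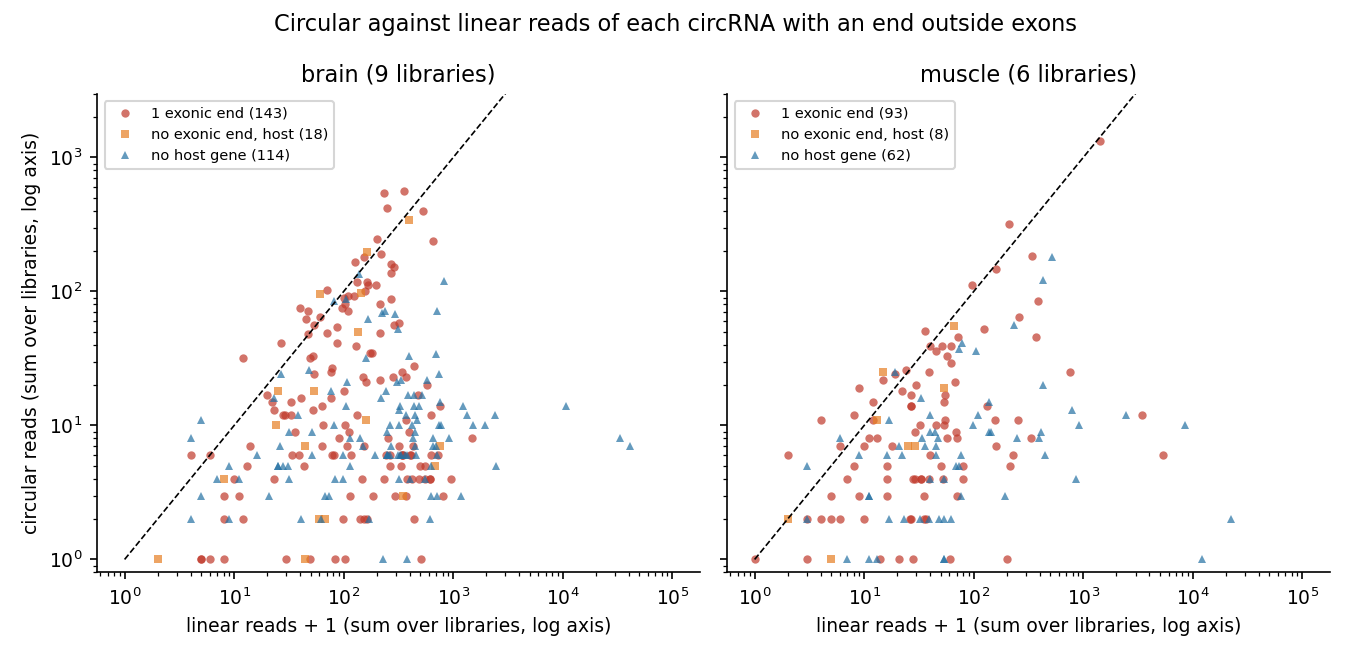
Circular reads against linear reads plus 1 (both log axes, summed over 9 brain libraries on the left and 6 muscle libraries on the right), 1 point for each detected circRNA with an end outside exons, by class, with the dashed line at equality. In brain 18 members with 20 or more circular reads lie above equality, and the points farthest right are members without a host.

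The highest brain shares belonged to hosts of varied roles. The circRNA of klc1, a kinesin light chain that couples cargo to the motor (chromosome 18, 4797685 to 4805789), had 540 circular and 231 linear reads in brain, a share of 70.0% (exact binomial 95% interval 66.7% to 73.3%). That of bace1, the beta-secretase that cuts amyloid precursor protein (chromosome 7, 4261005 to 4288732), had 566 and 354 reads, a share of 61.5% (58.3% to 64.7%). For xylt1, the xylosyltransferase that starts glycosaminoglycan chains (chromosome 8, 49102481 to 49111190), 75 circular and 39 linear reads gave 65.8% (56.3% to 74.4%). The highest share of all was that of aox1, an aldehyde oxidase, at 74.4%, but it rests on 32 circular and 11 linear reads and its interval runs from 58.8% to 86.5%. The shares of klc1 and bace1 varied little between brain libraries, at 69.5 ± 3.13% and 61.2 ± 2.98% (SD, n = 9). These intervals cover counting error only.

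Several members kept a high share in both tissues. For eif3l, which encodes part of the eIF3 complex that starts translation (chromosome 6, 4671792 to 4688940), the share was 62.3 ± 6.06% in brain and 61.8 ± 5.33% in muscle (SD, n = 9 and 6). For ubr3, a ubiquitin ligase (chromosome 9, 13223972 to 13236083), it was 53.5 ± 7.35% in brain and 53.2 ± 9.11% in muscle. LOC107386183 (chromosome 15, 3394517 to 3406703), with no exonic end, had 95 circular and 60 linear reads in brain and 25 and 14 in muscle. For jarid2, a cofactor of the Polycomb repressive complex that methylates histone H3 (chromosome 12, 13795606 to 13809912), the counts were 103 and 70 in brain and 24 and 18 in muscle. The edgeR share test passed for none of these 4 between tissues.

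At the other end, circRNAs with 20 or more circular reads over all libraries had shares down to a few percent. The lowest named were a circRNA without a host on chromosome 2 (5491454 to 5492108), another on chromosome 19 (4085897 to 4087665) and cox4i2.1, from a gene for a subunit of cytochrome c oxidase (chromosome 13, 30202565 to 30213174). On chromosome 19 the counts were 22 circular and 581 linear reads in brain, and 0 circular reads beside 109 linear reads in muscle. On chromosome 2 the counts were 0 circular and 300 linear reads in brain and 20 and 429 in muscle. The cox4i2 locus gave a second member, cox4i2.2, which shares the start 30202565 with cox4i2.1 and ends at 30213936. In muscle cox4i2.2 had 184 circular and 336 linear reads, a share of 35.4%, and cox4i2.1 had 25 and 750, a share of 3.23%.

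Abundance was then compared between brain and muscle over all 3 ages, in CPM, circular reads per 1000000 linear reads, with linear library sizes scaled by TMM over the 15 libraries. Of the 346 circRNAs, 175 had 10 or more circular reads over all libraries and were tested. Of these, 25 were higher in brain and 28 higher in muscle at an edgeR adjusted p under 0.05 over all 896 circRNAs tested. Of all circRNAs tested, 23.1% passed, 8.37% higher in brain and 14.7% higher in muscle, and DESeq2 called 23 members in each direction. Where a circRNA had 0 reads at an age, the mean over ages could be left undetermined, which held for 24 of the 175 and 172 of the 896, and these could not pass. With age as an added term in place of the mean over ages, none was undetermined, and 32 members were higher in brain and 41 in muscle, where 38.1% of all circRNAs passed; 51 members passed in both fits. The median log2 difference of brain over muscle was 0.88 over the 175 and 1.16 over all 896, where both include the undetermined circRNAs. With age as an added term it was 0.18 and 0.26. The scaling sets much of this split. With TMM of the circular counts the median was 2.08 over all circRNAs and 2.16 over members. The members' calls were then 79 higher in brain and 17 higher in muscle. With linear totals and no TMM both medians were 2.00, and the members' calls 70 and 17. Calls over all circRNAs under these scalings and by DESeq2 are not given here, so these counts do not set members apart. All 25 brain calls and 17 of the 28 muscle calls held under TMM of the circular counts, linear totals and DESeq2 size factors alike. The brain markers and muscle markers given above differ between the tissues in the direction of the labels in every library.

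**Figure D3:**
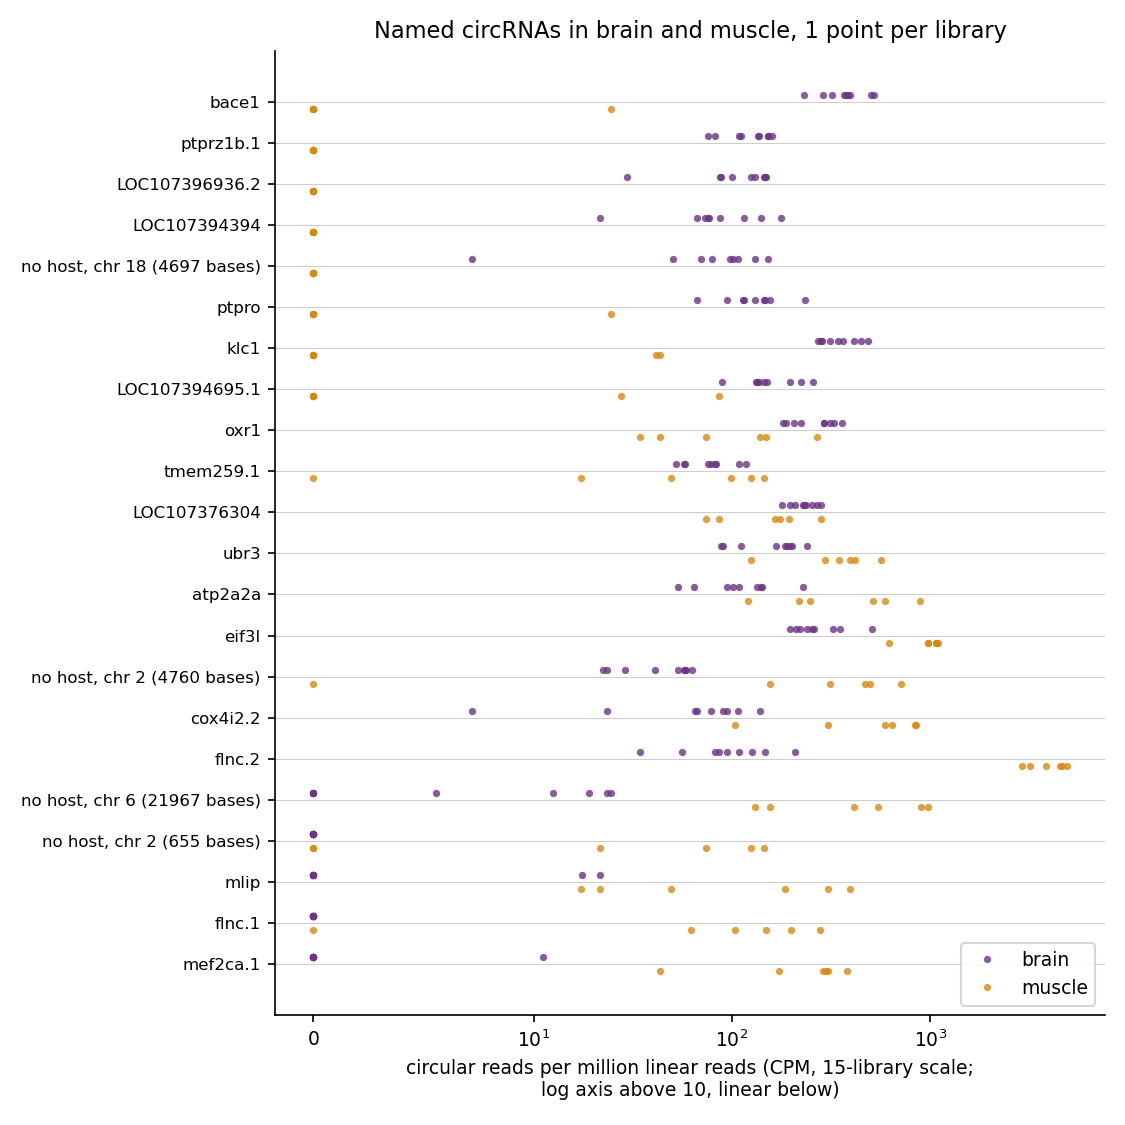
Circular reads in CPM (TMM scale over 15 libraries; linear below 10 and logarithmic above) in each brain and muscle library for the circRNAs with an outside end that lead either tissue or the tissue difference. From top to bottom the order runs from the highest to the lowest fitted log2 difference of brain over muscle; flnc.2 sits between 2908 and 4877 CPM in muscle and at or below 207 CPM in brain.

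The members that lead the brain calls are described here one by one. The circRNA of bace1 ran from 231 to 518 CPM in the 9 brain libraries (median 377), while in muscle it was read in 1 of 6 libraries, with 1 read. Brain and muscle did not overlap, and the ratio of brain to muscle was 124 (counting interval 22.1 to 4891; edgeR adjusted p = 3.0e-19). That of klc1 ran from 271 to 485 CPM in brain (median 342) and from 0 to 43.4 CPM in muscle (median 0), a log2 difference of 5.49 ± 0.65 (SE; adjusted p = 1.4e-15).

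The phosphatase genes ptprz1b and ptpro, whose receptor-type tyrosine phosphatases act in glia and in axon guidance, gave members of the same kind. The circRNA ptprz1b.1 (chromosome 2, 25873061 to 25877242) ran from 75.6 to 160 CPM in brain (median 134) and was at 0 in all 6 muscle libraries, so it was at least 13.8-fold higher in brain against a floor of 3 reads over the muscle group (adjusted p = 2.1e-08). That of ptpro (chromosome 2, 1201867 to 1211333), whose ends both lie outside exons, ran from 66.7 to 234 CPM in brain (median 130) and had 1 read in muscle (ratio 43.0, counting interval 7.63 to 1708; adjusted p = 6.0e-08). The circRNA of myo15aa, an unconventional myosin of hair cell stereocilia in mammals (chromosome 6, 55144319 to 55147856), ran from 42.9 to 131 CPM in brain (median 55.7) and was at 0 in muscle (at least 7.13-fold higher, adjusted p = 4.8e-05). None of these 3 overlapped between tissues.

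Members whose host was named only by an identifier, or that had no host, behaved in the same way. LOC107396936.2 had 165 circular reads in brain and 0 in muscle (ratio against the floor of at least 12.01-fold, adjusted p = 1.2e-07), and LOC107394394 had 138 and 0 (at least 10.05-fold, adjusted p = 1.5e-06). A circRNA without a host on chromosome 18 (35038322 to 35043018) ran from 7.22 to 153 CPM in brain (median 97.7), with 136 circular and 138 linear reads, and had 0 circular and 2 linear reads in muscle (at least 9.90-fold higher, adjusted p = 4.5e-06). For all 3, the linear reads in muscle numbered 3 or fewer.

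A brain call with reads in all 6 muscle libraries was oxr1, a gene named for resistance to oxidative damage. Its circRNA spans 134480 bases on chromosome 3 (29021173 to 29155652) and ran from 180 to 357 CPM in brain (median 290) and from 34.6 to 268 CPM in muscle (median 106). The ranges overlapped, and the log2 difference was 1.37 ± 0.42 (SE; adjusted p = 0.0061). Its share was 42.5 ± 6.37% in brain and 43.7 ± 17.1% in muscle (SD, n = 9 and 6).

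Members higher in muscle were led by flnc.2, from the gene of filamin C, which ties actin to the Z-disc of the sarcomere (chromosome 2, 1030947 to 1031338). It ran from 34.2 to 207 CPM in brain (median 93.8) and from 2908 to 4877 CPM in muscle (median 4152). The tissues were far apart, with a log2 difference of brain over muscle of -5.27 ± 0.27 (SE; adjusted p = 6.9e-81), and of -3.65 with TMM of the circular counts. The difference lay in abundance more than in share: the share of flnc.2 was 34.9 ± 10.9% in brain and 47.9 ± 3.33% in muscle, and the edgeR share test did not pass (log2 -0.81 ± 0.52, adjusted p = 0.78). A longer circRNA of the same gene, flnc.1 (1021027 to 1080267), had 0 circular reads in brain and 46 in muscle beside 65 and 372 linear reads. It was at least 70.2-fold higher in muscle on the TMM scale of the linear counts (adjusted p = 1.5e-13), but the call was lost without muscle library 3 of 3.5 weeks (adjusted p = 1.00), the only library of that age with a read, since the mean over ages is then undetermined. With all libraries and age as an added term the adjusted p was 8.3e-15 by edgeR.

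Other members higher in muscle came from mef2ca, mlip and myom2a. The circRNA mef2ca.1, from a gene for a transcription factor of muscle differentiation (chromosome 8, 42179422 to 42187056), ran from 0 to 11.1 CPM in brain (median 0) and from 43.4 to 380 CPM in muscle (median 293). The 2 brain reads came from 1 library, and the ratio of muscle to brain was 195 (counting interval 52.2 to 1633; adjusted p = 3.4e-25). For mlip, a lamin-interacting protein of muscle (chromosome 6, 19380191 to 19397120), 6 reads in brain stood against 52 in muscle, a log2 difference of -5.39 ± 0.99 (SE; adjusted p = 7.6e-07). The sarcomere gene myom2a, for the M-band protein myomesin, gave a circRNA with 0 reads in brain and 12 in muscle that passed as well (adjusted p = 9.4e-05). Its 3424 linear reads in muscle set the share there far below that of flnc.2.

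The gene cox4i2, for a cytochrome c oxidase subunit used under low oxygen in mammals, gave a muscle call that held under the 3 other scalings. Its circRNA cox4i2.2 ran from 7.21 to 139 CPM in brain (median 78.2) and from 104 to 846 CPM in muscle (median 617), a log2 difference of -2.72 ± 0.35 (SE; adjusted p = 3.8e-13) that was -1.10 with TMM of the circular counts (adjusted p = 0.0056). The lowest muscle library lay within the brain range. By contrast, the calls of eif3l and of atp2a2a, which encodes the SERCA2 pump that returns calcium to its store (chromosome 19, 5070191 to 5072855), did not hold. The log2 difference of eif3l was -1.78 ± 0.28 (SE; adjusted p = 3.4e-09) but -0.15 with TMM of the circular counts (adjusted p = 0.72), and that of atp2a2a was -1.66 ± 0.35 (adjusted p = 2.9e-05) but -0.03 (adjusted p = 1.00). For ubr3 the direction itself turned, with -1.09 ± 0.34 (adjusted p = 0.0084) on the main scale and 0.54 (adjusted p = 0.15) on the other. With TMM of the circular counts the direction turned likewise for nudcd1 and for a circRNA without a host on scaffold scf17836.

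Among circRNAs without a host, 8 were higher in brain and 10 in muscle of 68 tested, which is 26.5% called against 23.1% of all circRNAs tested. The one on chromosome 6 (38382734 to 38404700) ran from 0 to 24.4 CPM in brain (median 5.57) and from 130 to 973 CPM in muscle (median 477). The tissues did not overlap, at a log2 difference of -5.32 ± 0.46 (SE; adjusted p = 1.4e-28), which was -3.75 with TMM of the circular counts. A shorter circRNA with the same end (38402903 to 38404700) had 0 reads in brain and 10 in muscle, so it met the minimum of 10 through muscle alone. It passed too, but it is not independent of the longer one and adds no support. The one on chromosome 2 (5434451 to 5439210) ran from 22.3 to 63.0 CPM in brain (median 53.2) and from 0 to 707 CPM in muscle (median 391), with a log2 difference of -2.67 ± 0.43 (adjusted p = 7.7e-09). Its lowest muscle library, at 0, was below every brain library.

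The share of circular reads differed between tissues for 2 members of 175, both lower in brain, where 3.91% of all circRNAs tested passed. At an unadjusted p under 0.05 it was 18 of the 175 members and 95 of all 896. The circRNA scaper.1, from the gene of a cyclin A-associated protein of the endoplasmic reticulum (chromosome 4, 19253013 to 19272505), had 6 circular and 240 linear reads in brain and 21 and 67 in muscle. Its share was 1.92 ± 3.96% in brain and 24.0 ± 4.70% in muscle, with a log2 difference of -3.93 ± 0.93 (SE; edgeR adjusted p = 0.0013). A circRNA without a host on chromosome 17 (20648888 to 20660586) had a share of 5.67 ± 7.04% in brain and 35.7 ± 8.01% in muscle (log2 -3.29 ± 0.79, adjusted p = 0.0015). Over the 175, the median log2 difference in share was 0.01, and over all 896 it was -0.51. Both medians include undetermined circRNAs, and with age as an added term they were -0.08 and -0.64.

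The mean over ages left this share test undetermined for 75 of the 175 members and 394 of the 896 circRNAs, so the count of 2 is a count among the rest. With age as an added term, 9 members were undetermined, and 2 had a higher share in brain and 9 in muscle, scaper.1 and the chromosome 17 circRNA among them, where 8.59% of all circRNAs passed. The 2 higher in brain were klc1 and LOC107373468. For klc1 the share was 69.5 ± 3.13% in brain and, on 4 circular and 15 linear reads, 13.7 ± 19.2% in muscle, with a log2 difference of 3.11 ± 1.01 (SE; edgeR adjusted p = 0.029) in this fit and 3.73 ± 1.22 (adjusted p = 0.057) as the mean over ages. LOC107373468 had 56 circular and 286 linear reads in brain and 0 and 53 in muscle. Of those higher in muscle, cadm1a.2 (chromosome 15, 39963917 to 40192620) had the smallest p; its gene encodes a cell adhesion molecule of synapses and epithelia. It had 0 circular and 787 linear reads in brain and 14 and 131 in muscle (edgeR adjusted p = 1.3e-05). A second circRNA of the gene with the same end, cadm1a.3, passed too, on 3 circular reads in brain and 11 in muscle, and is not independent of cadm1a.2. The circRNA syn3.2, from the gene of synapsin III, had 17 circular and 471 linear reads in brain and 14 and 26 in muscle (log2 -3.60 ± 1.12, adjusted p = 0.021). Of these muscle reads, 11 circular and 13 linear came from library 1 of 8.5 weeks, and the libraries of 3.5 weeks had 0 circular reads.

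As a class, circRNAs with an outside end held 33.6 ± 3.25% of circular reads in brain and 30.8 ± 4.38% in muscle (SD, n = 9 and 6; permutation p = 0.179, adjusted p = 0.298). Their summed share was 3.99 ± 0.414% in brain and 3.39 ± 1.03% in muscle, a difference of 0.602 points (permutation p = 0.134, adjusted p = 0.251). Both depend on flnc.2: without it the differences were 9.82 points and 1.54 points. It was left out after the data were seen, as the leading muscle member, with 1319 circular reads in muscle and 153 in brain. Leaving out such a member moves both differences towards brain, so these values do not test the class. The share difference passed without muscle library 1 of 8.5 weeks, at 0.936 points (permutation adjusted p = 0.027), and turned to -0.945 points when taken as medians over circRNAs (permutation adjusted p = 0.824). The muscle medians were 0 in every library of 3.5 and 14 weeks, and 1.15% and 10.8% in those of 8.5 weeks. The turn therefore rests on the muscle libraries of 8.5 weeks. Their part of the linear reads was 22.6 ± 1.86% in brain and 19.7 ± 0.702% in muscle (permutation p = 0.0016, adjusted p = 0.0146), but without the 10 circRNAs with the most linear reads the difference turned to -1.02 points (permutation adjusted p = 0.060), and without the 3 entries of near-constant linear counts it was 1.89 points (permutation adjusted p = 0.038). Those 3 entries were left out after the data were seen, so the last value is no further test.

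With age, no linear trend passed for the class in either tissue. The part of circular reads that came from circRNAs with an outside end was 37.5%, 36.3% and 35.8% in the brain libraries of 3.5 weeks, 30.1%, 33.8% and 28.2% at 8.5 weeks, and 33.9%, 30.5% and 36.0% at 14 weeks. The muscle libraries gave 35.1% and 35.2% at 3.5 weeks, 28.4% and 25.1% at 8.5 weeks, then 33.5% and 27.3% at 14 weeks. In both tissues every library of 8.5 weeks was below every library of 3.5 weeks. The exact permutation p was 0.100 in brain and 0.333 in muscle, the smallest that 3 against 3 and 2 against 2 libraries allow, and the adjusted p over 54 such steps was 0.486 in both. The trend over 3 ages gave -0.282 points per week in brain and -0.437 in muscle (permutation p = 0.293 and 0.322, adjusted p = 0.400 and 0.403).

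The lower part at 8.5 weeks was that of members with a host. At 8.5 weeks they held 23.9 ± 2.88% of circular reads in brain, against 31.0 ± 0.809% at 3.5 weeks, and in muscle 20.8 ± 1.41% against 29.9 ± 2.26%, and neither pair of groups overlapped. Members without a host held 6.82 ± 0.455% at 8.5 weeks and 5.56 ± 0.155% at 3.5 weeks in brain, where the groups did not overlap either but ran the other way. In muscle those without a host held 5.94 ± 0.901% at 8.5 weeks and 5.28 ± 2.22% at 3.5 weeks, and overlapped. Each of these steps was at an adjusted p of 0.486 or above. In muscle, flnc.2 alone held 147 of 1343 and 221 of 1645 circular reads in the libraries of 3.5 weeks. At 8.5 weeks it held 352 of 4269 and 272 of 3316, a smaller part, so some of the muscle step lay in 1 circRNA. These parts also move with the rest of the total. The summed share of circRNAs with both ends exonic in brain was 2.81 ± 0.459% at 8.5 weeks, against 1.88 ± 0.0880% at 3.5 weeks, and that of circRNAs with an outside end 3.83 ± 0.579% against 3.88 ± 0.192%.

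**Figure D4:**
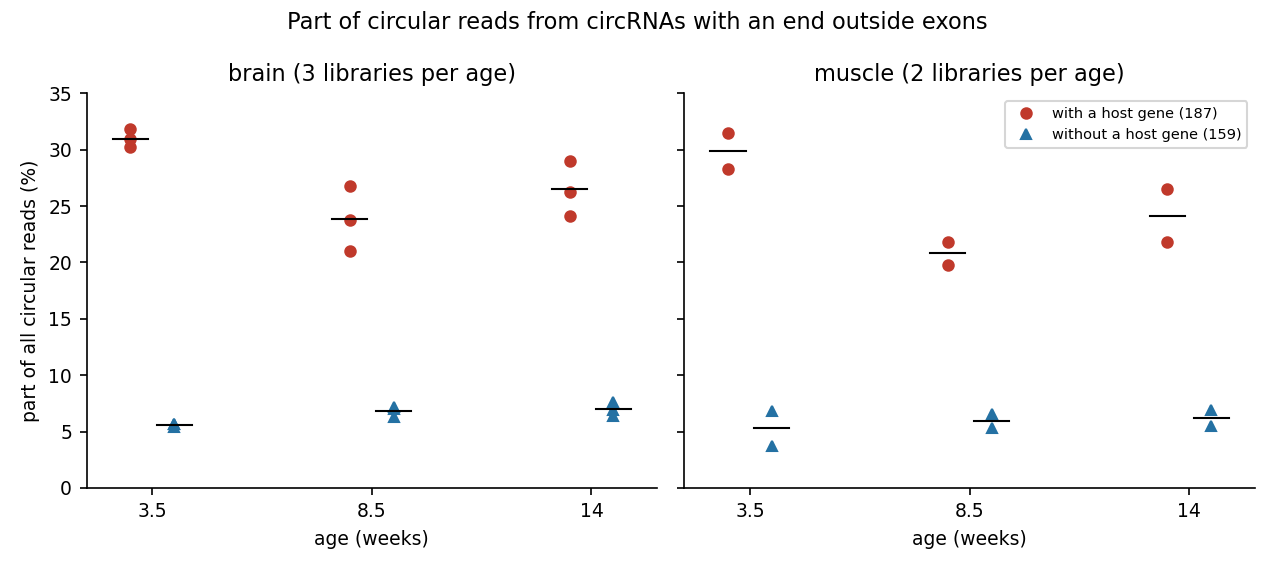
Percent of all circular reads of a library that came from circRNAs with an end outside exons, with a host gene (circles) or without one (triangles), by age in weeks in brain (left) and muscle (right), 1 point per library with bars at the group means. Members with a host lie lower at 8.5 than at 3.5 weeks in both tissues, at means of 23.9% and 31.0% in brain and 20.8% and 29.9% in muscle, and members without a host stay between 3.71% and 7.62%.

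In muscle the summed share of the class averaged 2.42 ± 0.0697%, 4.58 ± 0.682% and 3.16 ± 0.121% over the libraries of 3.5, 8.5 and 14 weeks (SD, n = 2). No library of one age overlapped with another, but 2 against 2 libraries cannot reach a p below 0.333. The share of circRNAs with both ends exonic was also higher at 8.5 than at 3.5 weeks, at 2.97% and 1.12% on average.

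Single members were tested between ages within each tissue. In brain, 134 members had 10 or more circular reads, and edgeR called 0 of them at each of 3 steps in abundance and in share, where among all circRNAs tested 0.156% passed at 8.5 over 3.5 weeks, 0% at 14 over 8.5 weeks and 0.156% at 14 over 3.5 weeks in abundance, and 0% at each step in share. At an unadjusted p under 0.05, 9, 7 and 14 of the 134 members passed in abundance, against 60, 31 and 63 of all 639 circRNAs, and 3, 4 and 7 members in share, against 42, 35 and 52 of all. DESeq2 called 0 members at each abundance step. The median log2 change of members was 0.17, -0.09 and 0.23, against 0.47, -0.19 and 0.34 over all 639 circRNAs tested. With TMM of the circular counts, the median over all was 0.11 at 8.5 over 3.5 weeks and that of members -0.19, so the direction of the members' median depends on the scaling.

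In brain abundance, members without a host had the smallest p at each step. The one on chromosome 16 (30654697 to 30664971) had 3, 4 and 6 circular reads at 3.5 weeks, 16, 12 and 18 at 8.5 weeks, and 32, 18 and 10 at 14 weeks. All libraries of 8.5 and 14 weeks were above those of 3.5 weeks, with 40.7 ± 13.9, 157 ± 5.60 and 160 ± 68.9 CPM on the brain scale in the order of the 3 ages (SD, n = 3). The log2 change was 1.93 ± 0.59 at 8.5 over 3.5 weeks and 1.97 ± 0.58 at 14 over 3.5 weeks (SE; edgeR adjusted p = 0.17 and 0.20). A member of the chromosome 11 locus with 3 overlapping entries (46984365 to 46998845) held 5, 4 and 2 reads in the 3.5-week libraries, 13, 11 and 12 in the 8.5-week and 6, 11 and 8 in the 14-week ones (log2 1.82 ± 0.68 at 8.5 over 3.5 weeks, adjusted p = 0.28). At 14 over 8.5 weeks the member was one on chromosome 3 (13151687 to 13156920), which fell and did not pass. It had 2, 3 and 0 reads at 3.5 weeks, 1, 7 and 3 at 8.5 weeks, and 0 in each library of 14 weeks.

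Members with a host and reads at a few ages were named by the same rule. The circRNA syn3.2, from the gene of synapsin III, a protein of synaptic vesicles (chromosome 2, 27128700 to 27220260), had 0 reads in each library of 3.5 weeks, 2, 0 and 0 in those of 8.5 weeks, and 6, 7 and 2 in those of 14 weeks. That of cdk12, a kinase of the RNA polymerase II tail, had 1, 0 and 0 reads in the libraries of 3.5 weeks, 0 in each of 8.5 weeks, and 8, 4 and 2 in those of 14 weeks. Neither passed over all circRNAs tested, with edgeR adjusted p of 0.417 for syn3.2 at 14 over 3.5 weeks and 0.973 for cdk12 at 14 over 8.5 weeks.

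In muscle, 65 members were tested and 1 passed, at 8.5 over 3.5 weeks, where 1.37% of all circRNAs tested passed. DESeq2 called 4 members, and its calls over all circRNAs are not given here. The edgeR call was the circRNA without a host on chromosome 6 (38382734 to 38404700) that also differed between tissues. The 2 libraries of 8.5 weeks held 65 and 59 circular reads (135 and 132 linear), against 6 and 9 (51 and 54 linear) at 3.5 weeks. The groups were far apart, at 496 ± 45.7 and 82.8 ± 7.18 CPM on the muscle scale (SD, n = 2), and the circRNA rose by a log2 change of 2.56 ± 0.57 (SE; edgeR adjusted p = 0.0448). At 14 weeks it had 20 and 22 reads, 233 ± 56.1 CPM. Pooled over the libraries of an age, its share was 12.5%, 31.7% and 22.2% in the order of the 3 ages. The call was lost without either library of 8.5 weeks (adjusted p = 0.404 and 0.527) and without library 2 of 14 weeks (adjusted p = 0.0741), and held without the other 3. Of the 65, 7 had an unadjusted p under 0.05 at this step, 0 at 14 over 8.5 weeks and 5 at 14 over 3.5 weeks, against 52, 3 and 26 of all 292 circRNAs. After adjustment no member was called at the last 2 steps, where 0% and 0.342% of the table was. DESeq2 called 0 members at both of these steps.

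Other muscle members had more reads at 8.5 weeks without passing. For cox4i2.2, 60 and 39 reads at 8.5 weeks stood against 14 and 6 at 3.5 weeks (log2 1.73 ± 0.61, adjusted p = 0.20). For atp2a2a it was 64 and 31 reads against 10 and 7 (log2 1.91 ± 0.67, adjusted p = 0.20). For flnc.2 the counts were 147 and 221 at 3.5 weeks, 352 and 272 at 8.5 weeks, and 141 and 186 at 14 weeks. As share, edgeR called 0 of 65 members at each muscle step (3, 1 and 2 undetermined), where 0.342% of circRNAs passed at 8.5 over 3.5 weeks and 0% at the other steps. At an unadjusted p under 0.05 it was 4, 0 and 3 of the 65 members, against 45, 7 and 32 of all 292. The median log2 change in abundance was 0.65 over the members and 1.23 over all 292 circRNAs tested at 8.5 over 3.5 weeks.

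**Figure D5:**
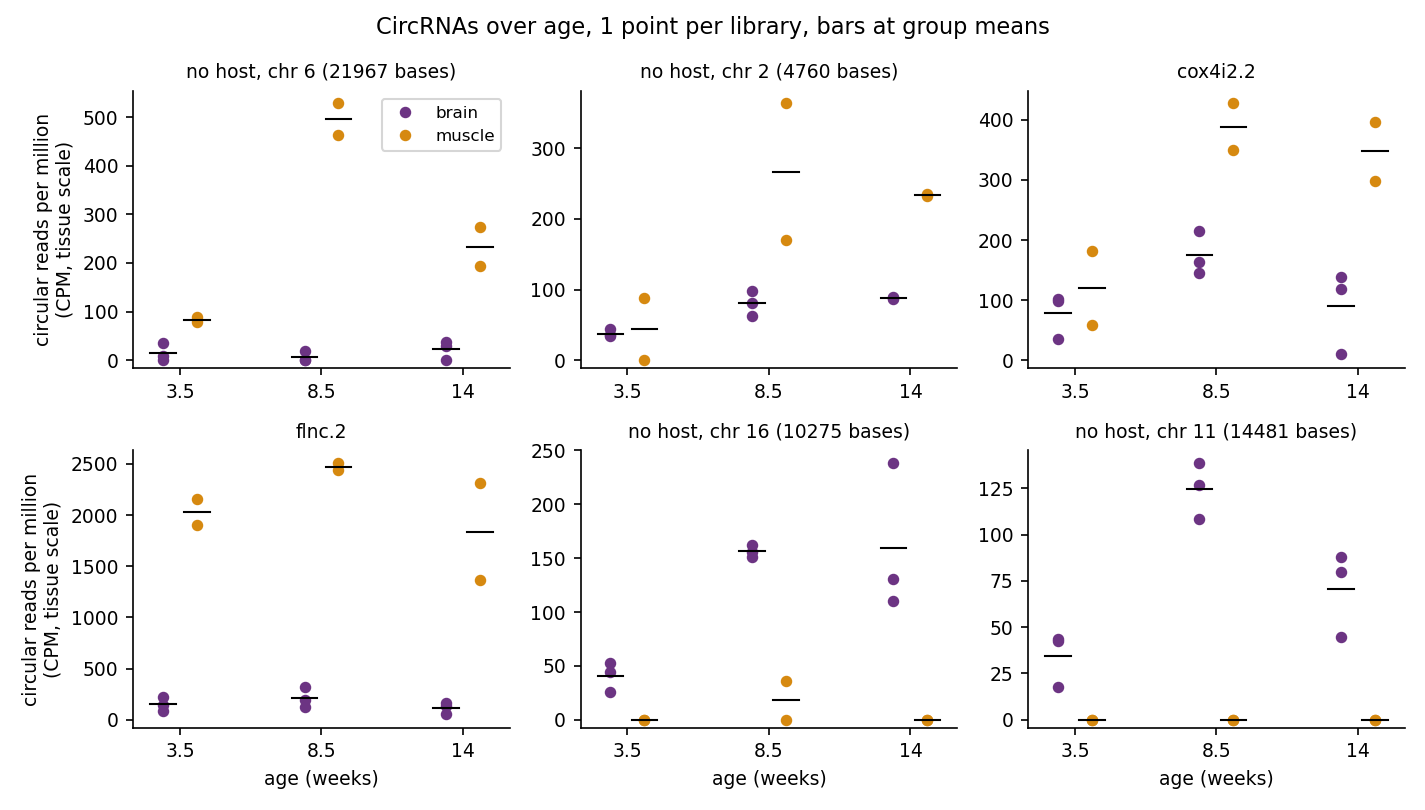
Circular reads in CPM (scaled within each tissue) by age in weeks, 1 point per library with bars at group means, for 6 circRNAs with an outside end; circRNAs without a host are given by chromosome and span. The chromosome 6 circRNA averages 82.8, 496 and 233 CPM over the 3 ages in muscle, and the chromosome 16 circRNA 40.7, 157 and 160 CPM in brain.

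Hosts were also grouped by role from gene lists, each with few members. The lists were chosen with earlier results of these data known, so the counts describe the named members and do not test the roles. Over all circRNAs tested 8.37% were higher in brain and 14.7% in muscle. Of 4 members hosted by sarcomere and calcium release genes (myom2a, flnc.1, flnc.2 and neb.1), 3 were tested between tissues and 3 were higher in muscle. The 2 members from cytoskeleton and motor genes, klc1 and myo15aa, were both higher in brain. Of 3 members from stress and mitochondria genes, oxr1 was higher in brain and cox4i2.1 and cox4i2.2 were higher in muscle. Of 4 members from synapse and channel genes (nlgn1, syn3.2, syn3.3 and grin2ab.2), only syn3.2 had enough reads to be tested, and its mean over ages was undetermined; with age as an added term its log2 difference was -1.90 ± 1.02 (edgeR adjusted p = 0.12). That list had 51 circRNAs in the table. The circRNA of nlgn1, a postsynaptic adhesion protein, had 7 circular and 755 linear reads in brain. Of the members of the other lists, ptprz1b.1 (adhesion and axon guidance), bace1 (ubiquitin and proteolysis) and rasgrf2.2 (small GTPase regulators) were higher in brain, eif3l (translation and RNA) was higher in muscle, a call lost with TMM of the circular counts as given above, and ptprz1b.2 and jarid2 (chromatin) passed in neither direction, with ptprz1b.2 undetermined as a mean over ages. Within a tissue, no member of the 9 lists with a member passed between ages.

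The authors' deposited tables give p-values of their own test, named bbTest in the sheet titles, for neighbouring ages within a tissue. In the authors' deposited table for adult against young brain, 6 of 79 members had p under 0.05, where 14.7% of all circRNAs in that table did. In the authors' deposited table for old against adult brain it was 4 of 82 (6.08% of all), for adult against young muscle 5 of 52 (25.4% of all) and for old against adult muscle 2 of 55 (7.11% of all). The smallest member p in the authors' deposited tables was 0.0014, for the chromosome 6 circRNA without a host in adult against young muscle, and after Benjamini-Hochberg adjustment over that table it was 0.049. In adult against young brain, the smallest in the authors' deposited table was 0.0038, for the chromosome 16 circRNA without a host (0.154 after adjustment).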

How the data were processed

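At 1810 positions, raw counts of back-splice reads and of linear reads were deposited by the authors, with a table of positions with host gene, strand and end classes, and p-values of their own age comparisons, per the file headers. Per the labels' protocols, total RNA was depleted of ribosomal RNA and read as stranded paired ends. STAR 2.5.2b was used per the submitters' processing notes; no source used here gives the circRNA caller, the genome build, the annotation or what the linear count covers. The tables held 0 columns of other samples. Each library's columns were matched by name to its label. The p-values deposited by the authors were copied, and adjusted over each table.

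Members are all rows whose end classes are not both exonic. They, the gene lists and the tests were chosen with earlier results of these data known. Hosts were named from the file (84 of 175), from RefSeq (assembly NfurGRZ-RIMD1), which gave names only (41), or by identifier (50); a number after a symbol tells circRNAs of 1 host apart. Circular counts were tested with edgeR 4.0.16 (R 4.3.3) quasi-likelihood F tests with TMM factors and library sizes from the linear counts, keeping a minimum of 10 circular reads summed over the fit, with Benjamini-Hochberg adjustment over all circRNAs tested at 0.05. All ages of a tissue shared 1 fit; brain and muscle were compared in 1 fit of 15 libraries, as the mean over 3 ages. Share was tested with circular and linear columns paired within a library. Class values per library were tested with exact permutation tests, adjusted over 15 tests (54 for the age steps). With a group at 0, the fold is a bound from 3 reads over the group. Exact binomial intervals are at 95%, and intervals and floors cover counting error only. The fits were tested on simulated data with known changes.

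Members were named if among the 8 with most circular reads in a tissue. The 5 largest called changes per direction of a comparison (or the 2 smallest p) were named too. So were the 2 leading in an end class or host group, the 5 leading without a host and the 5 highest or 3 lowest shares. The 2 smallest deposited p completed the rule, which gave 49 members, not all of them described. Outside this rule, nup50.1, nudcd1, myom2a, neb.1, syn3.3, grin2ab.2, cadm1a.2 and cadm1a.3 were named after their values were seen. The same holds for the 5 positions with most linear reads without a host and the shorter chromosome 6 circRNA. LOC107373468 and the member on scf36650 fell under the rule but are described for values seen later. Alternatives were other scalings, DESeq2 1.42.0, other filters, a replicate block and each library left out; linear totals without TMM, age as an added term between tissues and leaving out flnc.2 or 3 entries of near-constant linear counts were chosen after seeing the data. A contrast with an SE above 100 was taken as undetermined.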

Additional observations from a re-analysis of the deposited data

Results flagged for a closer look

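Circular RNAs with an end outside exons took 26.8% of the linear reads in brain library 2 of 8.5 weeks, which stood apart from the other 8 brain libraries (20.4% to 23.6%). It was the 1 library that stood apart among 30 groups of libraries examined in this way, where chance gives about 1 in 20 groups. Among brain libraries, the numbers of circular and of linear reads were also lowest in that one, at 2095 and 80405.

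Their part of the linear reads at 8.5 weeks minus that at 3.5 weeks was 2.82 percentage points in brain and -0.862 points in muscle. The libraries of 8.5 and 3.5 weeks did not overlap in either tissue, and the difference between the tissues was not tested. Without brain library 2 of 8.5 weeks the brain step was 1.57 points, and without 1 of the muscle libraries in turn the muscle step ran from -1.22 to -0.501 points.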

How the results depend on the processing

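Most values kept direction and side of the threshold: 411 of the alternatives to a class value or a count of calls, and 518 of those to a named circRNA. Taken as medians over circRNAs, the brain difference from circRNAs with both ends exonic was 1.05 (exact permutation adjusted p = 0.134). In this form 2 values turned, the muscle age trend of the share to -0.0181 per week and brain minus muscle in share to -0.945. These medians were at 0 in many libraries, as given above. They cannot show that a result depends on summing or that a direction reversed. The muscle age trend of the part of linear reads turned to -0.143 without the 10 positions with most linear reads and to -0.0131 with 10 or more circular reads; brain minus muscle turned to -1.02 without those 10 positions. Without flnc.2, brain minus muscle was 1.54 in share and 9.82 in part of circular reads. As flnc.2 was chosen after the data were seen, these 2 values are not tests.

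The calls counted next are of members, and calls over all circRNAs are given only for age as an added term. Calls at 8.5 over 3.5 weeks in muscle numbered 4 by DESeq2, and 1 in share (flnc.2, lower) with circular and linear columns scaled apart. Between tissues they numbered 79 higher in brain and 17 in muscle with TMM of the circular counts, and 70 and 17 with linear totals; in share, 1 and 4 with columns scaled apart, and 2 higher in brain with 30 or more reads. With age as an added term, calls in share numbered 2 higher in brain and 9 in muscle; over the whole table calls then numbered 341 in place of 207 in abundance and 77 in place of 35 in share. Leaving out 1 library, calls ran from 0 to 3 in abundance, 0 to 1 in share and 0 to 1 at 14 over 3.5 weeks in muscle, and between tissues from 18 to 25 and 21 to 29 in abundance and 2 to 3 in share. The class differences in share ran from 1.54 to 1.71 in brain and 1.25 to 1.47 in muscle, and brain minus muscle from 0.399 to 0.936. The trends of the part of linear reads ran from -0.0536 to 0.100 in brain and -0.0197 to 0.0962 in muscle.

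With the replicate block, 3 members passed at 8.5 over 3.5 weeks in muscle in place of 1, and calls over all circRNAs are not given here. Same-numbered brain libraries of different ages did not deviate together from their age means, at correlations of -0.057 to 0.073. In muscle these were -0.113 to 0.0194, but with 2 libraries per age the deviations mirror each other, so the check cannot decide there. The numbers were not taken as pairs. Whether brain and muscle libraries of the same age and number came from the same fish was not checked. The tests between tissues treat all 15 libraries as separate. The causes of these changes were not tested. Detected members had a median of 9 circular reads in brain and 8 in muscle, which limits the precision of a single member's values.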
